A study of Homo sapiens with 24 samples.

Results

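DEAD and DEAH box RNA helicases were followed in human acute myeloid leukaemia cells given RMC-7977, a compound that inhibits RAS proteins in their active state. Genes were taken by symbol, as DDX or DHX followed by digits and at most 1 letter, with DHX58 and DDX3Y left out; family members that carry another symbol, such as RIGI (formerly DDX58) and EIF4A3 (also DDX48), are not among them. Of 52 matching symbols, 50 were kept, among the 13033 genes of the table. From their known roles 16 were classed as nucleolar and 34 as other: 18 in splicing and mRNA export, 6 in cytoplasmic translation and decay, 2 mitochondrial, 2 antiviral, 3 DNA helicases or pseudogene copies, and 3 without a class. The OCI-AML3 line (OCIAML-3 in the labels) is labelled NRAS Q61L and the Molm-14 line FLT3-ITD. Each line had a group with 25 nM RMC-7977 for 24 h, a group with 25 nM for 2 h and a DMSO (solvent) group for which the labels state no time. Poly(A) RNA of 4 libraries per group was sequenced, and 23 of the 24 labelled libraries were used: in the 24 h group of OCI-AML3, replicate 3 was not analysed here and n = 3. Both times of a line are set against the same DMSO libraries, and the labels do not say that replicates were separate cultures, so the p-values measure the spread between these libraries, which may be technical.

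DEAD and DEAH box proteins are ATP-dependent enzymes named for the amino acids of a conserved motif. They unwind short RNA helices or remodel RNA and protein complexes, and nearly every step of RNA metabolism uses some of them. Those of the nucleolus act in the transcription and processing of ribosomal RNA and in the assembly of the small and large ribosomal subunits, work that growing leukaemia cells need. Other members drive the rearrangements of the spliceosome, export mRNA, start translation, or act in the response to viruses.

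Levels are the deposited log2 CPM (read counts scaled to library size), printed as CPM. Depth was estimated from the steps between low values, since read counts were not recovered. By that estimate the libraries held between 15.4 and 22.4 M effective reads (median 18.4 M). On the same basis the least covered helicase value rested on about 59.9 reads, in DDX60. All 8 listed myeloid markers were in the table, although MPO averaged only 0.708 to 3.39 CPM over the 6 groups. FCER1G averaged between 0.541 and 85.5 CPM. None of the 5 lymphoid, 3 erythroid and 3 epithelial or stromal markers was in the table. A gene was called when its adjusted p (limma, Benjamini-Hochberg over all 13033 genes) was below 0.05 and its fold change at least 2. Fold changes are given on the log2 scale with their SE. A level is a share of the sequenced RNA, and in bulk libraries fewer cells expressing a gene and less of its RNA per cell cannot be told apart.

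Most helicases lay below DMSO after RMC-7977: 46 of 50 did in OCI-AML3 at 24 h and 42 at 2 h, and 46 of 50 in Molm-14 at 24 h and 43 at 2 h. The nucleolar class had the lower median in each comparison. In OCI-AML3 at 24 h, 10 of 16 nucleolar and 8 of 34 other helicases fell, where 17.1% of all genes were called lower. At 2 h in the same line 3 of 16 nucleolar helicases and 1 of 34 others fell, against 3.35% of all genes. In Molm-14 at 24 h the calls were 3 of 16 nucleolar and 2 of 34 other helicases, all lower, against 6.57% of all genes. These counts depended on the processing. Without 24 h replicate 1 of Molm-14 they were 5 nucleolar of 8 in all. With library totals or median-of-ratios scaling they were 3 nucleolar of 3 in all, where 4.83% and 5.52% of all genes were called lower. At 2 h in Molm-14, 2 of 16 nucleolar helicases fell and 0 of 34 others were called by limma, against 2.98% of all genes. At an unadjusted p below 0.05, however, 22 of those 34 were lower and 2 higher. An adjusted p below 0.05 at any fold gave the same counts, against 4017 lower and 3739 higher of all 13033 genes. At the 2-fold limit, the share of other helicases called lower was thus near that of all genes or below it. The exception was OCI-AML3 at 24 h. At an adjusted p below 0.05 and any fold, 30 of these 34 were lower in OCI-AML3 at 24 h and 29 in Molm-14. Of all 13033 genes, 5474 and 5035 were lower at 24 h by that rule. In none of the 4 comparisons was any of the 50 helicases called higher by limma, where 18.4% of all genes were in OCI-AML3 at 24 h and 3.23% at 2 h, and 11.4% in Molm-14 at 24 h and 4.3% at 2 h. At an unadjusted p below 0.05, 4 helicases were above DMSO in OCI-AML3 at 24 h and 6 at 2 h, and 2 in Molm-14 at each time, none of them nucleolar. An adjusted p below 0.05 at any fold gave the same counts. By that rule 5528 of all 13033 genes were above DMSO in OCI-AML3 at 24 h and 4086 at 2 h. In Molm-14 they were 4915 at 24 h and 3739 at 2 h.

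**Figure D1:**
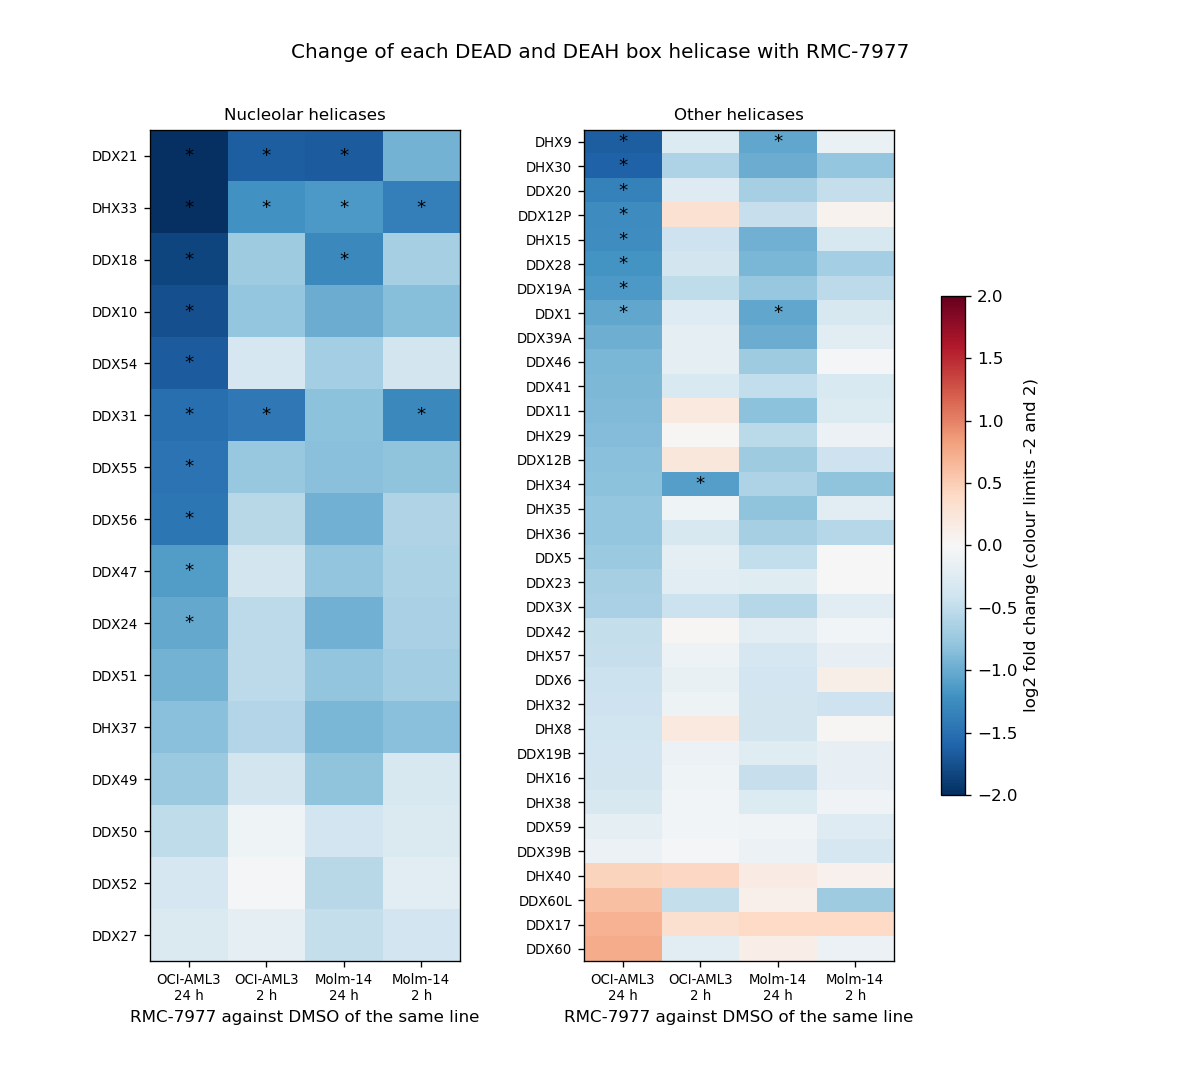
Heat maps of the log2 fold change against DMSO of the 16 nucleolar helicases (left) and the 34 others (right), with columns for OCI-AML3 at 24 h and 2 h and Molm-14 at 24 h and 2 h; colour limits are -2 and 2, and the darkest colours also stand for values beyond them, and an asterisk marks a called gene. All 16 nucleolar rows lie below 0 in each of the 4 columns, and DDX21 in OCI-AML3 at 24 h is the lowest value at -3.39.

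With a lower limit, a fold of at least 1.5, 33 helicases were called lower and 3 higher in OCI-AML3 at 24 h, against 27.8% and 29.1% of all genes. At 2 h in that line 9 were lower (7 nucleolar), against 9.68% of all genes. In Molm-14 27 were lower at 24 h (13 nucleolar), against 18.7%, and 15 at 2 h (11 nucleolar), against 8.73%. Between 24 h and 2 h, 26 of 50 helicases were called at that fold in either direction in OCI-AML3, against 43.9% of all genes, and 9 of 50 in Molm-14, against 27.2%. The line difference in response gave 11 of 50 at 24 h, against 35.1% of all genes, and 2 of 50 at 2 h, against 14%. Between the DMSO groups of the lines 8 of 50 were called, against 47.7% of all genes.

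The medians of the nucleolar class, the 34 others together and all genes were ordered alike in both lines. In OCI-AML3 the median log2 fold change at 24 h was -1.28 over the nucleolar helicases, -0.76 over the others and 0.01 over all genes, and at 2 h it was -0.54, -0.16 and 0.02. In Molm-14 the corresponding medians at 24 h were -0.83, -0.49 and 0.00, and at 2 h -0.65, -0.21 and 0.00. The 2 mitochondrial helicases, counted among the others, had a median of -1.40 in OCI-AML3 at 24 h and -0.49 at 2 h. Their median in Molm-14 was -0.95 at 24 h and -0.72 at 2 h. It lay below the nucleolar median except in OCI-AML3 at 2 h. All 16 nucleolar helicases lay below their DMSO mean in each of the 4 comparisons, while 30, 26, 30 and 27 of the 34 others did. The nucleolar values spread from -3.39 to -0.29 in OCI-AML3 at 24 h and from -1.36 to -0.22 in Molm-14 at 2 h, so members of the class differed widely from each other.

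The gap between the classes could be read in single libraries. Within each library the median of the nucleolar helicases, relative to the DMSO mean of its line, was set against that of the others. This difference averaged -0.56 ± 0.03 in OCI-AML3 at 24 h (SD, n = 3), -0.40 ± 0.04 at 2 h and 0.00 ± 0.03 in DMSO (n = 4 each). It averaged -0.34 ± 0.03 in Molm-14 at 24 h, -0.46 ± 0.04 at 2 h and 0.00 ± 0.03 in DMSO (n = 4 each). Every treated library lay below every DMSO library of its line, and the gap was wider at 24 h than at 2 h in OCI-AML3 but narrower at 24 h than at 2 h in Molm-14.

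**Figure D2:**
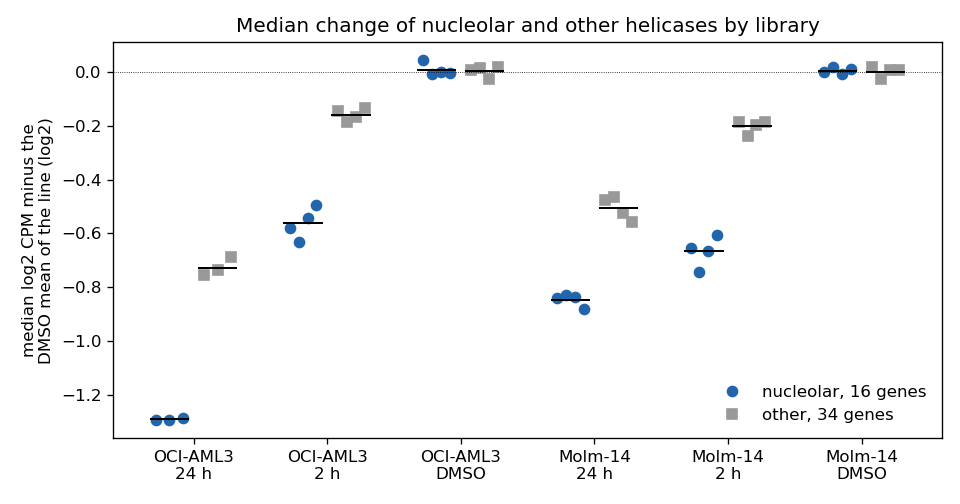
Median over the 16 nucleolar helicases (circles) and over the 34 others (squares) of log2 CPM minus the DMSO mean of the line, 1 symbol per library, with a bar at the group mean. In the treated groups the circles lie below the squares in every library, and the lowest circles are those of OCI-AML3 at 24 h.

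DDX21, which couples ribosomal RNA transcription with its processing, had the largest fall of any helicase at both times in OCI-AML3 and at 24 h in Molm-14. It lies on chromosome 10 (GRCh38.p14, chr10:68956170-68985068), next to its closest relative DDX50 (chr10:68901315-68946847). The 250 bases before the annotated start of each, from RefSeq on the plus strand of GRCh38.p14, are shown because the neighbours share a motif there. Any link of this motif to their responses was not tested. Capitals mark CCGGAAGT, the core to which ETS-type factors bind, which begins 60 bases before the start of DDX21 (chr10:68955920-68956169) and 48 bases before that of DDX50 (chr10:68901065-68901314).
DDX21: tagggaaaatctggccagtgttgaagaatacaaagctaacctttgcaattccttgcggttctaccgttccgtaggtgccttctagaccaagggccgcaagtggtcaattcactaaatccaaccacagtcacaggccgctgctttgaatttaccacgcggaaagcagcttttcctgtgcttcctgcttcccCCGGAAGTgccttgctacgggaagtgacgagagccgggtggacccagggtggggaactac
DDX50: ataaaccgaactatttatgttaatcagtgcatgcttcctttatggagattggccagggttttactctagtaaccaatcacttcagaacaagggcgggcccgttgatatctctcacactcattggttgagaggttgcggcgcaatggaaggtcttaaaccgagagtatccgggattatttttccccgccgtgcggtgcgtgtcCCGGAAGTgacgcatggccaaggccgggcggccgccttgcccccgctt

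DDX21 had 34.5, 34.4 and 37.7 CPM in OCI-AML3 at 24 h, 117, 127, 125 and 106 CPM at 2 h and 337, 390.4, 358 and 409 CPM in DMSO. It had 318, 326, 340.1 and 368 CPM in Molm-14 at 24 h, 549, 563, 560.3 and 558 CPM at 2 h and 1071, 986, 1123 and 1096 CPM in DMSO. The 3 groups of each line did not overlap, and 24 h was lowest and DMSO highest in both. In OCI-AML3 DDX21 fell at 24 h, to a level 10.5-fold lower than in DMSO (log2 fold change -3.39 ± 0.06, adjusted p = 1.38e-28, limma), and at 2 h (-1.65 ± 0.06, adjusted p = 2.17e-20). In Molm-14 it fell at 24 h (-1.66 ± 0.06, adjusted p = 3.12e-21), and its value at 2 h was -0.94 ± 0.06, short of the fold needed for a call. DDX50 had 38.3, 37.9 and 43.5 CPM in OCI-AML3 at 24 h, 51.9, 53, 56 and 52.9 CPM at 2 h and 55.9, 56.5, 57.8 and 55.6 CPM in DMSO. It had 55.8, 55.2, 56.7 and 52.3 CPM in Molm-14 at 24 h, 56.2, 58.7, 59.3 and 59.6 CPM at 2 h and 74.2, 65.3, 69.1 and 78.8 CPM in DMSO. DDX50 was not called in any of the 4 comparisons, with values of -0.50 and -0.08 in OCI-AML3 and -0.38 and -0.29 in Molm-14 at 24 h and 2 h; its treated and DMSO libraries overlapped in OCI-AML3 at 2 h.

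DHX33, a DEAH box protein that acts in ribosomal RNA transcription, was called lower in all 4 comparisons. It had 23.5, 20.3 and 21.8 CPM in OCI-AML3 at 24 h, 39.9, 41.9, 38.9 and 38.5 CPM at 2 h and 91.5, 92.5, 91.8 and 92.6 CPM in DMSO. Its level in Molm-14 was 57.2, 53.3, 54 and 53.6 CPM at 24 h, 48.5, 45, 48.5 and 46.6 CPM at 2 h and 114, 122, 124 and 124 CPM in DMSO. No treated group overlapped DMSO; in OCI-AML3 24 h was the lowest group, whereas in Molm-14 the 24 h libraries all lay above the 2 h libraries. Against DMSO the log2 fold change was -2.08 ± 0.05 at 24 h (adjusted p = 1.13e-25, limma) and -1.21 ± 0.05 at 2 h (adjusted p = 2.04e-19) in OCI-AML3. In Molm-14 it was -1.15 ± 0.05 at 24 h (adjusted p = 1.25e-19) and -1.36 ± 0.05 at 2 h (adjusted p = 7.27e-21).

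DDX31, which acts in the assembly of the large ribosomal subunit, was the other helicase lower by more than 2-fold within 2 h in both lines. Its promoter is shown as one of the 3 nucleolar promoters with CACGTG, the E-box core bound by MYC and related factors. Capitals mark that motif in the 250 bases before the start (RefSeq, GRCh38.p14, minus strand, chr9:132669984-132670233), where it begins 22 bases before the start.
DDX31: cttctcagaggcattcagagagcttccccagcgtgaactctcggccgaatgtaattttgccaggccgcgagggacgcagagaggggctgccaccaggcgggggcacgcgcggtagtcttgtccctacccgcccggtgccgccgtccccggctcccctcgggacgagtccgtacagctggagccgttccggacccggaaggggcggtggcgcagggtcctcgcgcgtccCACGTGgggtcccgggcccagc

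DDX31 had 13.4, 14.4 and 13.3 CPM in OCI-AML3 at 24 h, 13.4, 12.9, 15.9 and 15.3 CPM at 2 h and 43.6, 37.9, 38.8 and 35.2 CPM in DMSO. In Molm-14 it had 23.9, 25.9, 25.3 and 24 CPM at 24 h, 19.6, 17.1, 16.6 and 18.1 CPM at 2 h and 42.7, 45.7, 43.8 and 42.2 CPM in DMSO. The treated groups lay below DMSO in both lines; the 24 h and 2 h libraries overlapped in OCI-AML3, and in Molm-14 all 24 h libraries were above the 2 h ones. In OCI-AML3 the log2 fold change was -1.5 ± 0.08 at 24 h (adjusted p = 1.16e-17, limma) and -1.44 ± 0.07 at 2 h (adjusted p = 5.28e-17). In Molm-14 it was -0.81 ± 0.07 at 24 h, which was not called, and -1.29 ± 0.07 at 2 h (adjusted p = 5.17e-16). Of the exon bases of DDX31, 6.85% are shared with GTF3C4 on the opposite strand, and the strand setting of the counting is not given in the sources used here.

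DDX18 was among the 3 largest falls in both lines at 24 h, and DDX54 among the 3 widest differences in response between the lines. DDX18, whose yeast counterpart acts in the assembly of both subunits, had 49.6, 52.2 and 54.1 CPM in OCI-AML3 at 24 h, 116, 116, 117 and 105 CPM at 2 h and 174, 187, 185 and 194 CPM in DMSO. Libraries of Molm-14 held 107, 112, 115 and 111 CPM at 24 h, 168, 174, 177 and 174 CPM at 2 h and 279, 255, 274 and 286 CPM in DMSO. Its 3 groups did not overlap in either line, with 24 h lowest and DMSO highest. It fell at 24 h in OCI-AML3 (-1.83 ± 0.05, adjusted p = 6.24e-25, limma) and in Molm-14 (-1.30 ± 0.04, adjusted p = 1.73e-21), while its values at 2 h were -0.71 and -0.66. DDX54, whose yeast counterpart acts in large subunit assembly, had 79.6, 78.6 and 76 CPM in OCI-AML3 at 24 h, 194, 196, 186 and 212 CPM at 2 h and 261, 243, 255 and 230.5 CPM in DMSO. The Molm-14 libraries had 177, 171, 171 and 174 CPM at 24 h, 226, 202, 214 and 217 CPM at 2 h and 274, 290.3, 269.9 and 271 CPM in DMSO. Its groups were ordered in the same way without overlap, and the step was much larger between 24 h and 2 h than between 2 h and DMSO in OCI-AML3. DDX54 fell in OCI-AML3 at 24 h (-1.66 ± 0.05, adjusted p = 4.52e-24); its values were -0.33 at 2 h in that line, and -0.67 at 24 h and -0.36 at 2 h in Molm-14. Of its exon bases, 11.4% are shared with CFAP73 on the opposite strand.

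**Figure D3:**
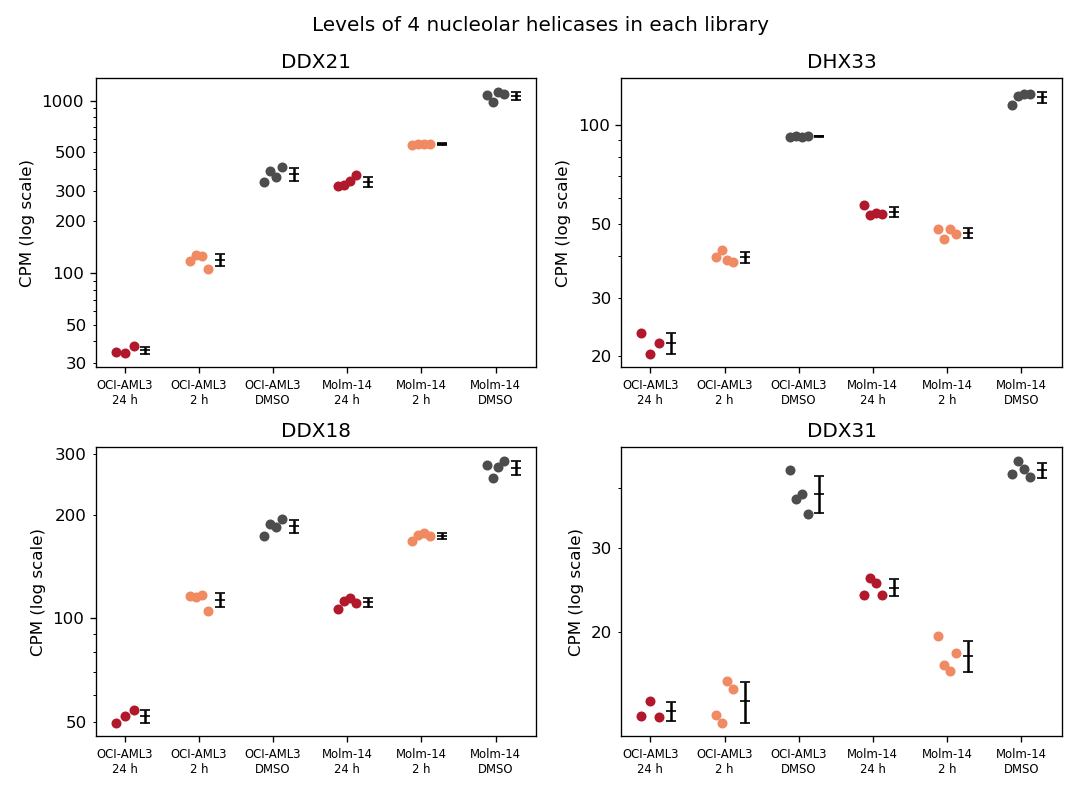
CPM (log axes) of DDX21, DHX33, DDX18 and DDX31 in every library of the 6 groups, with the group mean and SD beside the points. DDX21 and DDX18 are lowest at 24 h in both lines, whereas DHX33 and DDX31 in Molm-14 lie lower at 2 h than at 24 h.

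Of the remaining nucleolar helicases, DDX10 and DDX47, whose yeast counterparts act on the small subunit, fell in OCI-AML3 at 24 h, with log2 fold changes of -1.75 and -1.11. DDX24, DDX55 and DDX56, which belong to large subunit assembly, fell there too, with values of -1.02, -1.48 and -1.44. DDX24 shares 11.4% of its exon bases with OTUB2 on the opposite strand, and DDX55 shares 16.2% with EIF2B1. The DDX24 call did not hold without OCI-AML3 24 h replicate 2 (-0.96) or without DMSO replicate 4 (-0.995). With libraries scaled to their totals, which moved the median of all genes in this comparison by 0.17, DDX24 (-0.85), DDX47 (-0.94) and the export factor DDX19A (-0.98) were not called, and by median of ratios DDX24 (-0.97) was not. The other 6 were not called: DDX51 had -0.94, DHX37 -0.84, DDX49 -0.73, DDX50 -0.50, DDX52 -0.34 and DDX27 -0.29. None of these 11 was called in Molm-14 at 24 h, where they ranged from -0.998 in DDX10, just short of the 2-fold limit, to -0.38 in DDX50. Both small and large subunit factors were thus among the called and the uncalled members.

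Among the splicing and export helicases 4 of 18 fell in OCI-AML3 at 24 h, namely DHX9, DDX20, DHX15 and DDX19A (22.2%, against 17.1% of all genes). In Molm-14 at 24 h 1 of 18 fell, DHX9 (5.56%, against 6.57%). At the 2-fold limit both shares were thus near those of all genes. At an adjusted p below 0.05 and any fold, 17 of 18 were lower in OCI-AML3 and 16 in Molm-14 at 24 h. In each line 1 was higher. Of all 13033 genes, 5474 and 5035 were lower at 24 h by that rule. In this class at 2 h 0 of 18 were called in either line by limma. At an unadjusted p below 0.05, 10 were lower and 2 higher in OCI-AML3, and 11 lower and 1 higher in Molm-14. An adjusted p below 0.05 at any fold gave the same counts. By that rule 4020 of all 13033 genes were lower and 4086 higher in OCI-AML3, and 4017 lower and 3739 higher in Molm-14. DHX9, also known as RNA helicase A, had 129, 130.4 and 136 CPM in OCI-AML3 at 24 h, 338, 344, 349.9 and 326 CPM at 2 h and 414, 416, 400.3 and 417 CPM in DMSO. Its level in Molm-14 was 208, 204, 212 and 218 CPM at 24 h, 398, 389, 385 and 401 CPM at 2 h and 429.5, 423, 449 and 429.9 CPM in DMSO. None of these groups overlapped within a line, and most of the difference from DMSO was seen at 24 h. The log2 fold change at 24 h was -1.65 ± 0.04 in OCI-AML3 (adjusted p = 1.7e-26, limma) and -1.04 ± 0.03 in Molm-14 (adjusted p = 8.27e-22); the Molm-14 call was lost when libraries were scaled to their totals (-0.94) or by median of ratios (-0.98). DDX20, a part of the SMN complex that assembles spliceosomal particles, fell in OCI-AML3 at 24 h (log2 fold change -1.35). DHX15, which takes spent spliceosomes apart, fell there (-1.25), as did DDX19A, an mRNA export factor (-1.15). Of DDX19A exon bases 62.6% are shared with other genes, so its reads may be split between them.

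DDX17, a partner of DDX5 in splicing and transcription, was the member of this class that lay above DMSO in every comparison. It had 721, 769.6 and 777 CPM in OCI-AML3 at 24 h, 579.6, 600.0, 619 and 538 CPM at 2 h and 450.0, 480.1, 442 and 497 CPM in DMSO. In Molm-14 it had 724, 699, 715 and 719 CPM at 24 h, 702, 746, 724 and 693 CPM at 2 h and 523, 531, 567 and 545 CPM in DMSO. All treated libraries exceeded all DMSO libraries of their line, but the log2 fold changes of 0.70, 0.32, 0.40 and 0.40 were below the 2-fold limit and no call was made.

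In the cytoplasmic class 1 of 6 helicases (16.7%) was called lower in each of 3 comparisons. Of all genes, 17.1% were called lower in OCI-AML3 at 24 h, 3.35% at 2 h and 6.57% in Molm-14 at 24 h. DDX1, a part of the tRNA ligase complex, had 72.8, 78.8 and 77.8 CPM in OCI-AML3 at 24 h and 156, 159.9, 163 and 152 CPM in DMSO. It had 92, 90.1, 100.005 and 87.3 CPM in Molm-14 at 24 h and 202, 179.7, 187 and 189.7 CPM in DMSO. It fell at 24 h in both lines without overlap (-1.04 ± 0.05, adjusted p = 1.55e-17, and -1.04 ± 0.05, adjusted p = 5.35e-18, limma); scaling to library totals gave -0.87 in OCI-AML3 and -0.94 in Molm-14, and both calls were lost, as with median-of-ratios scaling (-0.99 in OCI-AML3 and -0.98 in Molm-14). DHX34, which acts in nonsense-mediated decay, had 31.5, 29 and 28.3 CPM in OCI-AML3 at 24 h, 23.4, 24.8, 22.3 and 27.9 CPM at 2 h and 58.9, 49.2, 54.5 and 48 CPM in DMSO. DHX34 fell at 2 h in OCI-AML3 (-1.10 ± 0.07, adjusted p = 5.9e-14), the one helicase outside the nucleolar class called at 2 h, and its 2 h libraries lay below those of 24 h. Its values were -0.83 in OCI-AML3 at 24 h and -0.62 and -0.81 in Molm-14 at 24 h and 2 h. DDX3X and DHX29, which help start translation, had -0.65 and -0.86 in OCI-AML3 at 24 h, and DDX6, a factor of mRNA decay, had -0.43.

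Both mitochondrial helicases, which act in the assembly of mitochondrial ribosomes, fell in OCI-AML3 at 24 h, where 17.1% of all genes were called lower. DHX30 had 76.1, 70.3 and 65.9 CPM there and 238, 209, 216 and 203 CPM in DMSO, with no overlap and a log2 fold change of -1.61 ± 0.06 (adjusted p = 1.19e-21, limma). DDX28 fell in the same comparison, with -1.19 ± 0.08. In Molm-14 at 24 h neither was called, with values of -0.99 for DHX30 and -0.91 for DDX28. Of the exon bases of DDX28, 18.3% are shared with DUS2 on the opposite strand.

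The fitted means of the antiviral pair lay above DMSO at 24 h and below DMSO at 2 h in both lines, without a call. DDX60 and DDX60L are neighbours on chromosome 4, and DDX60 is an interferon-induced gene that assists the sensing of viral RNA. The 250 bases before the start given by RefSeq (GRCh38.p14, minus strand, chr4:168318753-168319002 for DDX60 and chr4:168480493-168480742 for DDX60L) are shown because each holds, at 2 places, the core of interferon-stimulated response elements: GAAA, 2 bases of any kind and GAAA again. Capitals mark these matches.
DDX60: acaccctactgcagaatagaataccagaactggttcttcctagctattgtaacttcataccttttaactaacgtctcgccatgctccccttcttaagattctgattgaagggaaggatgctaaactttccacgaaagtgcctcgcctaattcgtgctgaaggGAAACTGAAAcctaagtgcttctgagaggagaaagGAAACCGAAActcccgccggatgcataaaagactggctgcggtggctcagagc
DDX60L: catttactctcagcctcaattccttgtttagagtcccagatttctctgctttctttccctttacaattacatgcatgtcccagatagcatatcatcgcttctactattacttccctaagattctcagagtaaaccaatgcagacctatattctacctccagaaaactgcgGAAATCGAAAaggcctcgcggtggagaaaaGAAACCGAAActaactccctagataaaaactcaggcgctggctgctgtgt

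DDX60L had 34.7, 35.1 and 36.4 CPM in OCI-AML3 at 24 h, 14.4, 18, 17.6 and 16.8 CPM at 2 h and 23, 23.6, 22.3 and 24.1 CPM in DMSO. Libraries of Molm-14 held 124, 116, 117 and 115 CPM at 24 h, 69.1, 67.3, 68.1 and 67.1 CPM at 2 h and 113, 102, 113 and 114 CPM in DMSO. In both lines the 2 h libraries were the lowest and the 24 h libraries the highest, without overlap. Against DMSO no difference reached a call, with 0.61 at 24 h and -0.48 at 2 h in OCI-AML3 and 0.09 and -0.70 in Molm-14. DDX60 had 7.51, 5.93 and 7.13 CPM in OCI-AML3 at 24 h, 4.12, 3.43, 3.23 and 3.36 CPM at 2 h and 4.09, 3.57, 3.9 and 4.85 CPM in DMSO. The Molm-14 libraries had 24.8, 21.3, 24 and 26.4 CPM at 24 h, 20.3, 21.2, 19 and 19.7 CPM at 2 h and 21.4, 20.8, 23.4 and 21.8 CPM in DMSO. The OCI-AML3 libraries at 24 h exceeded DMSO without overlap, by 0.74 ± 0.11, which was not called, and the remaining differences from DMSO were -0.21, 0.14 and -0.12.

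DDX11, a DNA helicase of sister chromatid cohesion, and DDX12B were named by their difference in response between the lines at 2 h. DDX11 had 77.7, 77.6 and 72 CPM in OCI-AML3 at 24 h, 157, 156, 155 and 172 CPM at 2 h and 139, 141, 138 and 137 CPM in DMSO. Its level in Molm-14 was 91.3, 89, 83.2 and 82.1 CPM at 24 h, 135, 125, 125 and 119 CPM at 2 h and 150.2, 158, 149.8 and 152 CPM in DMSO. The 2 h libraries lay above DMSO in OCI-AML3 and below DMSO in Molm-14, and the 24 h libraries were the lowest in both lines. DDX12B had 12.7, 12.4 and 11.4 CPM in OCI-AML3 at 24 h, 23, 24.8, 26.9 and 27 CPM at 2 h and 21.2, 23.6, 19.6 and 22.9 CPM in DMSO. In Molm-14 it had 13.4, 12.6, 11.8 and 12.1 CPM at 24 h, 15.6, 16.6, 15.2 and 13.6 CPM at 2 h and 19.4, 19.9, 21.4 and 20.8 CPM in DMSO. Its 2 h and DMSO libraries overlapped in OCI-AML3. Neither gene was called against DMSO; the third of the class, DDX12P, fell in OCI-AML3 at 24 h (-1.26 ± 0.11, adjusted p = 1.92e-11, limma). DDX11 and the pseudogene DDX12P are near-identical copies, so the division of reads among the genes of this class is uncertain.

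The remaining 3 helicases were not called against DMSO. DHX40 lay at 0.44 and 0.41 in OCI-AML3 and 0.17 and 0.08 in Molm-14 at 24 h and 2 h. DHX32 and DHX57 lay between -0.46 and -0.10 over the 4 comparisons.

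The response in the 2 lines was compared as the difference of the log2 fold changes, OCI-AML3 minus Molm-14. At 24 h DDX21 was the 1 helicase called, with a difference of -1.73 ± 0.08 (adjusted p = 5.5e-17, limma), where 9.75% of all genes were called lower. The nucleolar differences between 1.5-fold and 2-fold were -0.99 ± 0.06 in DDX54, -0.92 ± 0.07 in DHX33, -0.75 ± 0.09 in DDX10, -0.69 ± 0.10 in DDX31 and -0.64 ± 0.08 in DDX55. Of the 34 other helicases, 4 were lower and 1 higher in this difference at a fold of at least 1.5. With DDX21 included, 6 of 16 nucleolar helicases were lower at that fold and 0 higher. Of all 13033 genes, 2483 were lower and 2089 higher. Over the 34 others the difference ranged from -0.80 to 0.60. DDX54 reached a call without DMSO replicate 2 of Molm-14 (-1.01), without DMSO replicate 4 of OCI-AML3 (-1.02) or without 24 h replicate 1 of OCI-AML3 (-1.0), which made 2 calls in place of 1. At 2 h none of the 50 helicases was called by limma, where 5.64% of all genes were. At an unadjusted p below 0.05 the difference in response was positive in 17 helicases and negative in 8. At an adjusted p below 0.05 and any fold it was positive in 14 and negative in 7, against 2499 and 2540 of all 13033 genes. At 2 h the widest differences were -0.71 ± 0.08 in DDX21 (adjusted p = 2.89e-08), 0.64 ± 0.10 in DDX12B (adjusted p = 1.04e-05) and 0.48 ± 0.06 in DDX11 (adjusted p = 3.72e-07). For DDX11 the 24 h difference was -0.05, and it changed sign to 0.02 with library totals.

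**Figure D4:**
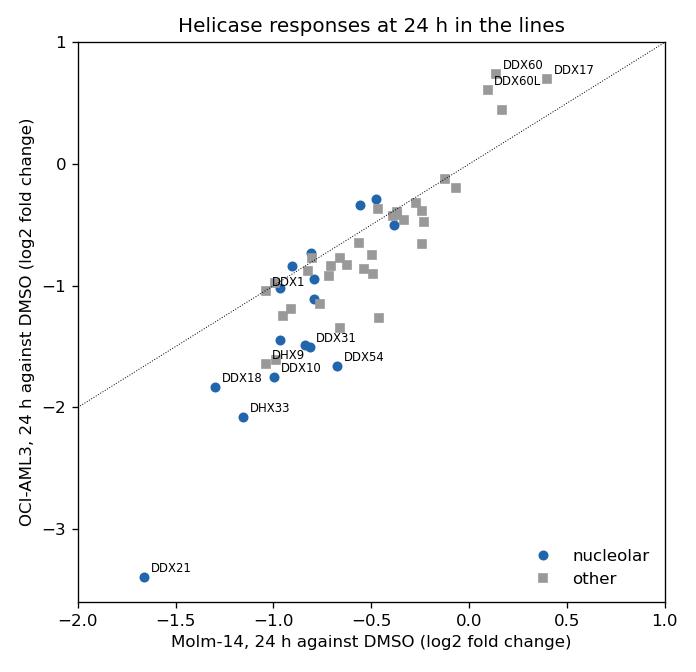
Log2 fold change at 24 h against DMSO in OCI-AML3 (vertical axis) and in Molm-14 (horizontal axis) for each of the 50 helicases, with nucleolar and other members in separate colours and the line of equal change. DDX21 lies farthest below that line, at -3.39 in OCI-AML3 and -1.66 in Molm-14.

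In DMSO few helicases differed by 2-fold or more between the lines. Whatever their fold, 13 were higher and 24 lower in OCI-AML3 at an adjusted p below 0.05. By that rule 5864 of all 13033 genes were higher and 4876 lower. Of 50, 4 were lower in OCI-AML3 than in Molm-14 and none was higher by limma, where 12.2% of all genes were called lower and 17.9% higher; 13 were higher and 25 lower at an unadjusted p below 0.05. The 4 were DDX60 (-2.42 ± 0.10, adjusted p = 5.15e-20), DDX60L (-2.25 ± 0.05, adjusted p = 1.37e-25), DHX32 (-1.86 ± 0.08, adjusted p = 9.8e-20) and DDX21 (-1.52 ± 0.06, adjusted p = 1.12e-20, limma). The other nucleolar helicases given in full above, DHX33, DDX31, DDX18 and DDX54, were not called between the DMSO groups, with values of -0.40, -0.17, -0.56 and -0.16.

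Between the times, OCI-AML3 at 24 h had 8 helicases lower and 1 higher than at 2 h, where 10.9% of all genes were called lower and 11.6% higher. The 8 were DDX21 (-1.74 ± 0.06), DDX12P (-1.56 ± 0.11), DHX9 (-1.37 ± 0.04), DDX54 (-1.33 ± 0.05), DDX18 (-1.12 ± 0.05), DDX20 (-1.10 ± 0.06), DDX11 (-1.08 ± 0.05) and DDX12B (-1.06 ± 0.08). With library totals DDX20 (-0.998), DDX11 (-0.97) and DDX12B (-0.96) were not called and DDX60 (1.058) was. The higher one was DDX60L (1.09 ± 0.06, adjusted p = 1.52e-16, limma). In Molm-14 no helicase was called by limma between 24 h and 2 h, where 10.6% of all genes were called in either direction. At an unadjusted p below 0.05, 7 helicases were higher and 34 lower at 24 h. An adjusted p below 0.05 at any fold gave the same counts, against 4359 higher and 4542 lower of all 13033 genes. DDX31 and DHX33 were among those 7, with differences of 0.47 ± 0.07 (adjusted p = 6.6e-07) and 0.21 ± 0.05 (adjusted p = 0.000243), and 14 of 16 nucleolar helicases lay lower at 24 h. In OCI-AML3 these 2 genes had -0.07 ± 0.08 and -0.87 ± 0.05, and all 16 nucleolar helicases lay lower at 24 h.

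The ratio between related helicases was followed within the same libraries. Ratios of 5 pairs, chosen after their values were seen, were tested against DMSO by exact two-sided permutation tests with adjustment over 20 tests; the smallest possible p is 0.0286 with 4 against 4 libraries and 0.0571 with 3 against 4, so OCI-AML3 at 24 h could not pass 0.05. The log2 ratio of DDX21 to DDX50 averaged -0.17 ± 0.04 in OCI-AML3 at 24 h (SD, n = 3), 1.15 ± 0.11 at 2 h and 2.72 ± 0.13 in DMSO (n = 4 each). In Molm-14 it averaged 2.62 ± 0.14 at 24 h, 3.25 ± 0.03 at 2 h and 3.90 ± 0.10 in DMSO. Treated minus DMSO, it differed by -2.89 and -1.57 in OCI-AML3 and by -1.28 and -0.64 in Molm-14 at 24 h and 2 h. The ratio of DDX5 to DDX17 differed from DMSO by -1.44 and -0.52 in OCI-AML3 and by -0.90 and -0.40 in Molm-14 at 24 h and 2 h. That of the export factors DDX19A to DDX19B differed by -0.76 and -0.38 in OCI-AML3 and by -0.52 and -0.37 in Molm-14. For each of these 3 ratios the exact p was 0.0286 (adjusted 0.044) with 4 against 4 libraries and 0.0571 (adjusted 0.0672) in OCI-AML3 at 24 h.

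For the export factor pair DDX39A and DDX39B the ratio differed more from DMSO at 24 h than at 2 h. Their log2 ratio differed from DMSO by -0.86 at 24 h and -0.16 at 2 h in OCI-AML3, and by -0.87 at 24 h and 0.12 at 2 h in Molm-14, with the same exact p-values. DDX39B shares 89.3% of its exon bases with other genes, mostly a read-through transcript, which can take up its reads. The ratio of DDX60L to DDX60 was lower than in DMSO in Molm-14 at 2 h (-0.58, exact p = 0.0286, adjusted 0.044). In the other comparisons it differed by -0.14 in OCI-AML3 at 24 h (exact p = 0.4), -0.27 at 2 h (exact p = 0.171) and -0.04 in Molm-14 at 24 h (exact p = 0.629).

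**Figure D5:**
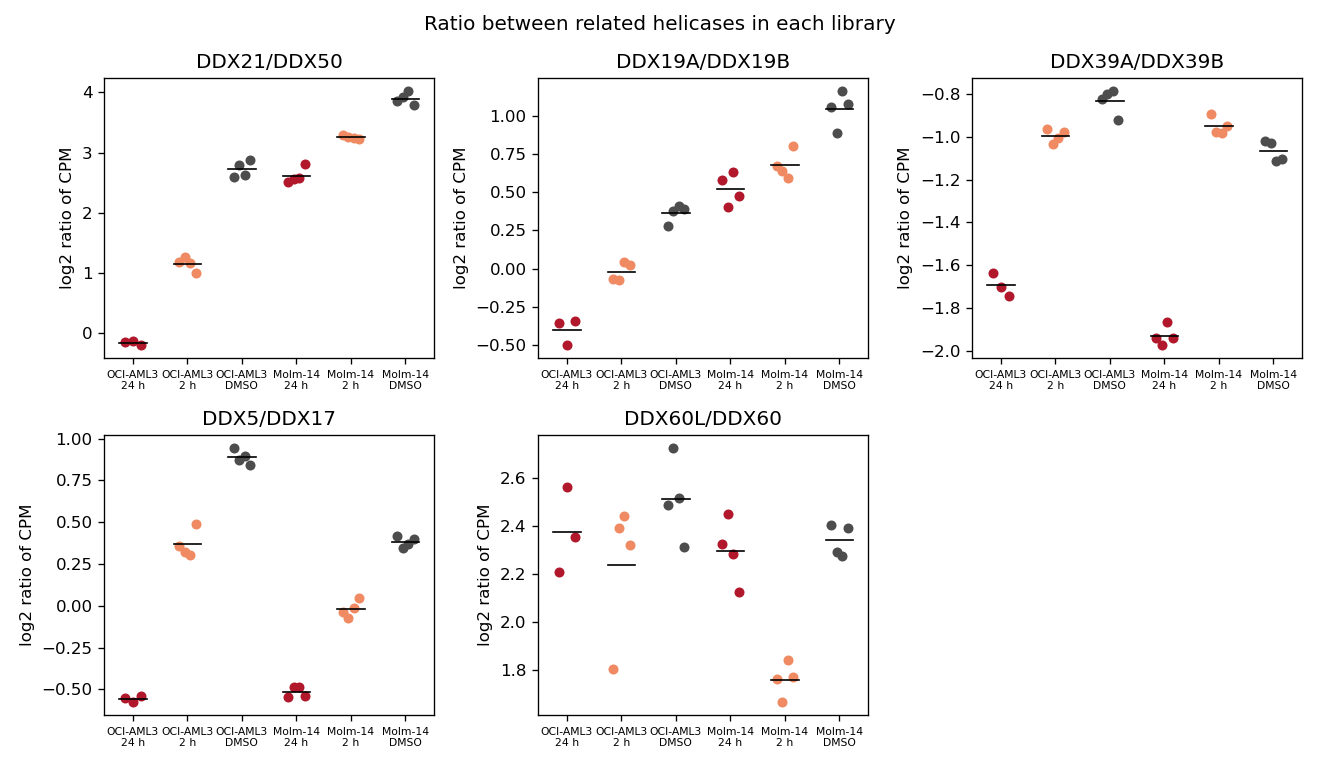
Log2 ratio of CPM between the members of 5 related helicase pairs in every library of the 6 groups, with a bar at the group mean. The ratio of DDX21 to DDX50 averages -0.17 in OCI-AML3 at 24 h and 2.72 in DMSO, and the DDX60L to DDX60 ratios of OCI-AML3 overlap between the groups.

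A pair of lists of genes without a DDX or DHX symbol gave a wider picture. Of the other RNA helicases, some of them DEAD box proteins under another symbol, 20 of 23 listed names were measured. In OCI-AML3 at 24 h 2 of them rose (10%, against 18.4% of all genes) and 3 fell (15%, against 17.1%). RIGI was 1 of the 2 that rose there (1.84 ± 0.12, adjusted p = 9.23e-14, limma). Those that fell had the smallest adjusted p (limma) in EIF4A3 (-1.69 ± 0.05, adjusted p = 2.89e-24), a part of the exon junction complex, and the translation initiation factor EIF4A1 (-1.26 ± 0.04, adjusted p = 1.18e-22). The median of the 20 there was -0.24, closer to 0 than that of the nucleolar or other DDX and DHX members. At 24 h in Molm-14 the single call was a rise, of RIGI (5%, against 11.4% of all genes called higher), and EIF4A3 was at -0.98 ± 0.04. At 2 h 1 rose in OCI-AML3, IFIH1 (1.0 ± 0.11, adjusted p = 7.44e-09), against 3.23% of all genes, and 2 rose in Molm-14, among them RIGI (1.94 ± 0.11, adjusted p = 2.39e-14), against 4.3% of all genes. IFIH1 and RIGI are sensors of viral RNA.

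All 20 listed helicase cofactors, mostly G-patch proteins that stimulate DEAH box enzymes, were measured. In OCI-AML3 at 24 h 5 fell (25%, against 17.1% of all genes) and 1 rose (5%, against 18.4%), with a median of -0.49. In Molm-14 at 24 h 3 fell (15%, against 6.57%), and at 2 h 2 fell in each line (10%, against 3.35% in OCI-AML3 and 2.98% in Molm-14). GPATCH4, a nucleolar G-patch protein, fell in all 4 comparisons: its values were -2.74 ± 0.07 and -1.10 ± 0.06 in OCI-AML3 at 24 h and 2 h (adjusted p = 2.52e-25 and 2.81e-15, limma). In Molm-14 they were -1.5 ± 0.06 and -1.36 ± 0.06 (adjusted p = 3.9e-19 and 1.36e-17).

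Promoters of 300 bases, from 250 before to 50 after the start, were found for 44 of 50 helicases in RefSeq (GRCh38.p14); the promoters of DDX12B, DDX12P, DDX18, DDX49, DDX52 and DHX33 were not used here. Both strands were searched for 3 motifs. CCGGAAGT was in 6 of 12 nucleolar promoters (50%) and 5 of 32 others (15.6%), against 9.05% of promoters of genes in the table and 4.44% of all 27305 promoters. The 6 were those of DDX21, DDX27, DDX47, DDX50, DDX56 and DHX37. In OCI-AML3 at 24 h DDX21, DDX47 and DDX56 were called lower, and DDX27, DDX50 and DHX37 were not called. Any link of the motif to the calls was not tested. CACGTG, a palindrome, was in 3 of 12 nucleolar promoters (25.0%: DDX31, DDX54 and DHX37) and 5 of 32 others (15.6%), against 10.2% of promoters of genes in the table and 7.43% of all. The core of interferon-stimulated response elements was in 0 of 12 nucleolar promoters and 3 of 32 others (9.38%: DDX60, DDX60L and DHX15), against 2.98% of promoters of genes in the table and 3.65% of all. These are matches of letters, and no binding was measured.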

How the data were processed

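The authors deposited log2 CPM values for 13033 genes. The submitters' processing notes list Trimmomatic 0.36, STAR 2.7.8a, RSEM 1.3.3, edgeR 3.24.3, limma 3.38.3 and MultiQC 1.28 with hg38 (GRCh38); no source used here gives the strand setting or the low-count filter. In each library 74.9% to 82.7% of the values that equal 20 reads or fewer came within 0.05 of whole reads, so counts were not recovered. The lowest value shared by all libraries, log2 CPM -3.26 (0.105 CPM), reflects a prior count, which understates changes of low genes. Columns were matched to samples by library name. All libraries carry the same batch label, and correlations between replicates of a group ran from 0.991 to 0.995.

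In R 4.3.3, limma 3.58.1 fitted 6 group means over 23 libraries (trend and robust moderation), and was tested on simulated data. Adjusted p-values follow Benjamini-Hochberg over all genes, and calls needed an adjusted p below 0.05 and a fold of at least 2. No test of a list was made. Library values were printed for the 3 largest called rises and falls per drug comparison, given 1 CPM or more in the higher group, and for the 3 widest differences in response between lines at each time. DDX50, DDX17, DHX9, DDX1, DHX34, DHX30, DDX60 and DDX60L, the class of DDX12B, the paralog pairs and the motifs were chosen after values were seen. Members and lists were chosen with earlier results of these data known. Of 55 helicases listed in classes, 4 were not analysed here, and DDX58 was analysed under its current symbol RIGI, among the other RNA helicases. Exon overlap used GENCODE on GRCh38. Alternatives were another pseudocount, filter, scaling, moderation, fold limit, sample set and replicate block, and leaving out each library.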

Additional observations from a re-analysis of the deposited data

Results flagged for a closer look

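Among 250 helicase values by group with 4 libraries, 12 had 1 library far from the other 3 by Dixon's ratio (its gap to the nearest library over the group's range), which is 4.8%; chance marks about 1 in 20. In OCI-AML3 at 2 h, replicate 4 stood apart in 3 genes. It had 172 CPM of DDX11 against 155 to 157 CPM in the others (ratio 0.881), 105 CPM of DDX18 against 116 to 117 CPM (0.913) and 185 CPM of DHX15 against 201 to 204 CPM (0.878). In the same group replicate 1 had 12.5 CPM of DDX12P against 13.7 to 14 CPM (0.841), replicate 2 had 20.5 CPM of DHX35 against 23.7 to 24.1 CPM (0.89), and replicate 3 had 40.5 CPM of DDX55 against 46.2 to 46.8 CPM (0.905).

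In Molm-14 treated with RMC-7977, 24 h replicate 4 had 636 CPM of DDX39B against 689 to 700 CPM in the others (0.83), and 2 h replicate 1 had 96.2 CPM of DDX49 against 84.2 to 85.4 CPM (0.901). DMSO replicate 2 of Molm-14 was low in 4 genes. It had 323 CPM of DDX3X against 355 to 358 CPM (0.894), 102 CPM of DDX60L against 113 to 114 CPM (0.9), 28.2 CPM of DHX29 against 35.1 to 36.3 CPM (0.854) and 23.9 CPM of DHX35 against 25.2 to 25.4 CPM (0.899).

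The 24 h response of DDX21 differed between the lines by -1.73 on the log2 scale, OCI-AML3 minus Molm-14, in limma's test of the difference itself (adjusted p = 5.5e-17).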

How the results depend on the processing

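The number of helicases called depended most on the fold limit. At a fold of at least 1.5 the calls were 36 in OCI-AML3 at 24 h (33 lower and 3 higher), 9 at 2 h (7 of them nucleolar), 27 in Molm-14 at 24 h (13 nucleolar) and 15 at 2 h (11 nucleolar). Between 24 h and 2 h they were 26 in OCI-AML3 and 9 in Molm-14. The line difference in response gave 11 at 24 h and 2 at 2 h, and DMSO 8 between lines.

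Scaling to library totals shifted the median of all genes by 0.17 on the log2 scale in OCI-AML3 at 24 h. There 14 helicases were then called (without DDX1, DDX19A, DDX24 and DDX47), and median-of-ratios scaling gave 16 (without DDX1 and DDX24). The share of all genes called lower in that comparison was 13.9% with library totals and 15.9% by median of ratios, against 17.1% as deposited. In Molm-14 at 24 h both scalings gave 3 calls in place of 5. Of all genes, 4.83% were called lower there with library totals and 5.52% by median of ratios, against 6.57% as deposited. The DDX11 line difference at 24 h changed sign, to 0.0202, with library totals. The cause of these changes was not tested.

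Without 1 library at a time, the calls ranged from 17 to 19 in OCI-AML3 at 24 h (nucleolar 9 to 10), 5 to 8 in Molm-14 at 24 h (nucleolar 3 to 5, with 8 and 5 without 24 h replicate 1, when DDX10, DDX56 and DHX30 joined), 9 to 11 between times in OCI-AML3 and 1 to 2 in the line difference at 24 h. The nucleolar median minus the other median ranged from -0.56 to -0.49 in OCI-AML3 at 24 h, -0.44 to -0.36 at 2 h, -0.36 to -0.32 in Molm-14 at 24 h and -0.46 to -0.43 at 2 h. The line difference of DDX54 at 2 h, 0.03, ranged from -0.0021 to 0.0597 and changed sign without OCI-AML3 DMSO replicate 4 (-0.000193) or 2 h replicate 4 (-0.0021).

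The replicate numbers did not pair the libraries: the highest correlation of deviations was 0.104, and in no comparison did every pair exceed 0.1. With the replicate block, OCI-AML3 had 18 and 4 calls at 24 h and 2 h, Molm-14 5 and 2, and between times in OCI-AML3 10 in place of 9 (DHX30, -1.01). The pseudocount, the filter, the moderation and the set of libraries in the fit moved no count by over 1.5 times. The number of libraries, 3 in OCI-AML3 at 24 h, limits precision.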
